A study of Mus musculus with 6 samples.

Results

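The antioxidant genes described here were 10 genes of the infarcted mouse heart: Nfe2l2, which encodes the transcription factor NRF2, and Nqo1, Hmox1, Gclc, Gclm, Txnrd1, Srxn1, Sod2, Gpx3 and Cat, which encode enzymes that remove oxidants or rebuild the molecules used to do so. They are a set of named genes, and each was taken by its Ensembl identifier from a table of raw read counts for 38293 genes. All 10 were in the table and all 10 were among the 14746 genes that passed the filter on low counts. RNA came from heart tissue of 3 WT and 3 Zeb2 cKO adult mice, 14 days after permanent occlusion of the left anterior descending artery, on a backcrossed C57BL/6J strain. The methods of the study name the WT controls Zeb2 fl/fl, so that both groups carry floxed Zeb2 alleles, and the Zeb2 cKO mice carry in addition a Cre recombinase driven by the Myh6 promoter, which is active in cardiomyocytes. The sample labels place the tissue in the border region of the infarct and the methods place it in the remote zone, and which of them holds was not settled here. The comparison of the groups asks how loss of ZEB2 from cardiomyocytes moves RNA levels in the injured heart.

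NRF2 is held in the cytoplasm by KEAP1, which hands it to a CUL3 ubiquitin ligase for degradation. Oxidants and electrophiles modify KEAP1, NRF2 then accumulates, enters the nucleus and binds antioxidant response elements together with small MAF proteins, while BACH1 competes for the same elements. Targets of NRF2 include the quinone reductase NQO1, heme oxygenase HMOX1, both subunits of glutamate-cysteine ligase, thioredoxin reductase TXNRD1 and sulfiredoxin SRXN1. SOD2 converts superoxide to hydrogen peroxide in mitochondria, and catalase and the secreted glutathione peroxidase GPX3 break peroxides down. In the heart, oxidants are produced by mitochondria of cardiomyocytes and, after infarction, also by the NADPH oxidases of infiltrating leukocytes and of fibroblasts.

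The promoter windows of the members were read because NRF2, which regulates several of them, binds a short sequence. A further reason was that ZEB2, the factor deleted in the cKO mice, binds the E-box CACCTG. RefSeq windows on GRCm38.p6, from 250 bases before to 50 bases after a gene start, were found for 8 of the 10 members, with none for Hmox1 and Gclc. The core of the antioxidant response element, TGACNNNGC or its reverse complement GCNNNGTCA, occurred in 4 of the 8 (Nfe2l2, Gclm, Txnrd1 and Srxn1). Among 10591 tested genes with a window, 17.1% held it, as did 12.4% of all 32851 windows. The matches are shown with 10 bases on each side, 5′ to 3′ on the strand of the gene, with the matched bases in capitals.
Nfe2l2, chr2:75704885-75704913, minus strand, 240 to 232 bases before the start: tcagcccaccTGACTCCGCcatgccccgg
Gclm, chr3:122245413-122245441, plus strand, 134 to 126 bases before the start: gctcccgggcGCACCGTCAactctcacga
Txnrd1, chr10:82859104-82859132, plus strand, 92 to 84 bases before 1 of its 3 starts: ctggatttttGCTTTGTCAttctgacacg
Srxn1, chr2:152105542-152105570, plus strand, 29 to 37 bases after the start: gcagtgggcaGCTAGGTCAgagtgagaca
The match in Nfe2l2 reads TGACNNNGC on the strand of the gene, and the other 3 read it on the opposite strand. The E-box CACCTG, or CAGGTG on the other strand, occurred in the window of Nfe2l2 alone among the 8, against 20.5% of tested genes with a window and 20.2% of all windows. In Nfe2l2 it lay 244 to 239 bases before the start and shared 2 bases with the antioxidant response element core, as capitals show in the stretch chr2:75704892-75704913.
Nfe2l2, E-box: tcagccCACCTGactccgccat
These matches describe letters in 300-base windows, and binding was not measured.

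Libraries held 37288174 to 51136331 counts, of which 60.5% to 67.0% came from mitochondrially encoded genes, and the members had 138 to 12036 counts in single libraries. The unit CPM below is a count divided by the TMM-normalized size of its library, times 1000000. Zeb2 (ENSMUSG00000026872, chromosome 2, 44983632 to 45117395, minus strand) was at 61.3, 116.05 and 71.9 CPM in WT replicates 1, 2 and 3 and at 59.6, 72.6 and 66.5 CPM in Zeb2 cKO replicates 1, 2 and 3, so the groups overlapped (log2 fold change -0.33, SE 0.25, and -0.01 without WT replicate 2). Exons of the antisense gene Zeb2os cover 653 exonic bases of Zeb2. WT replicate 2 stood apart from the other libraries. Its log2 CPM correlated with theirs at r = 0.935 to 0.953 across genes, where the other libraries correlated with each other at 0.981 to 0.989. Fold changes of the members are therefore given with and without that library. In this library 10 of 11 macrophage markers and 9 of 9 fibroblast and matrix markers were at their highest of the 6 libraries, and 9 of 10 cardiomyocyte markers were at their lowest. Cardiomyocyte markers summed to 34643 to 67131 CPM in WT and to 55234 to 67008 CPM in Zeb2 cKO, so defining heart muscle genes such as Myh6 and Ttn were present in every library.

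Per length of exon, the level of the members spanned a wide range. Cat had the highest mean level, 34.5 CPM per kb of exon over the 6 libraries, followed by Gpx3 at 27.3, Sod2 at 19.4 and Nqo1 at 15.5 CPM per kb. These 4 enzymes ranked at or above percentile 94.4 of all tested genes. Nfe2l2 itself followed at 7.14 CPM per kb. Txnrd1 was at 3.27, Srxn1 at 3.03, Hmox1 at 2.77, Gclc at 2.17 and Gclm at 1.63 CPM per kb, the last at percentile 48.9. Neighbours in this order had overlapping ranges over libraries, except that Nqo1 (11.6 to 18.8 CPM per kb) lay above Nfe2l2 (6.54 to 8.93) and Nfe2l2 lay above Txnrd1 (2.92 to 3.59) in every library. Gpx3 had the widest range, from 14.1 to 68.0 CPM per kb. In WT its mean (35.3) lay above that of Cat (32.8), and in Zeb2 cKO its mean (19.3) lay below that of Sod2 (21.1). The length used was that of all annotated exons of a gene together. It was 10008 bases for Sod2 and 7086 for Txnrd1, whose longest transcripts have 5861 and 3622 bases. The order on other lengths was not tested. For Sod2, 6.16% of the longest transcript was shared with transcripts of other genes, and 0% for the other members. These shares cover the longest transcript only, and exons of Gclm that overlap other genes are given below.

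**Figure D1:**
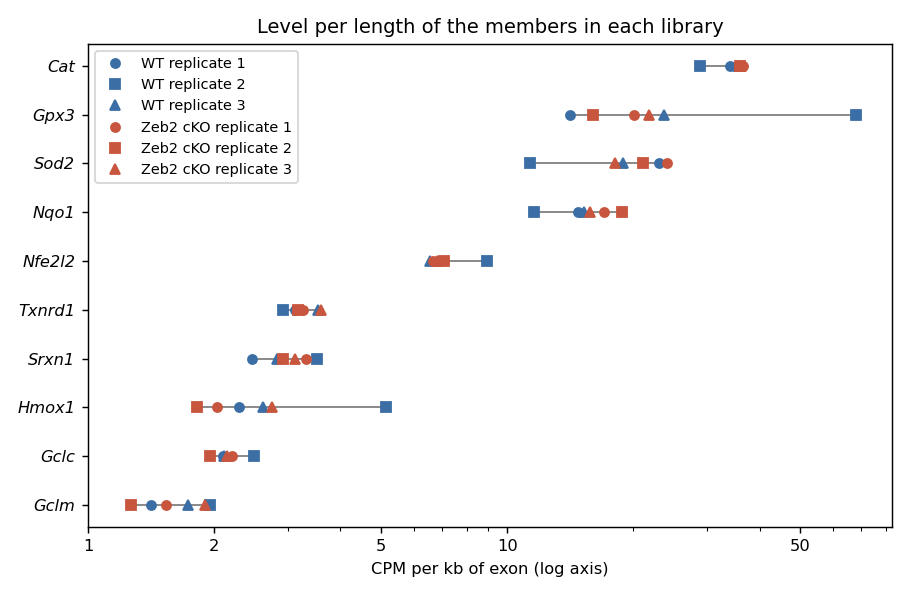
Level of each member in CPM per kb of exon (log axis), 1 point per library, ordered by mean level. Cat, Gpx3, Sod2 and Nqo1 lie above the other 6 members in mean level, and the WT replicate 2 point of Gpx3 stands far to the right at 68.0 CPM per kb.

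Of the 10 members, 0 passed the test between the groups. The adjusted p was 0.957 for each, from the quasi-likelihood test of edgeR adjusted after Benjamini and Hochberg over 14746 genes. Across all tested genes 0% were called at an adjusted p under 0.05, and 280 genes (1.9%) had an unadjusted p under 0.05, 0.861% being lower and 1.04% higher in Zeb2 cKO. Of the members, 0 had an unadjusted p under 0.05. The log2 fold change was below 0 for 5 members and above 0 for 5, beside 51.4% below 0 among all tested genes, and their median log2 fold change was -0.01, the same to 2 decimals as that of all tested genes (-0.01). Groups did not overlap for 2 members, Nqo1 and Cat, both higher in Zeb2 cKO. Among all tested genes 6.36% did not overlap, 2.97% being lower and 3.39% higher. For single genes the exact permutation test of 3 mice against 3, two-sided, cannot give a p under 0.1. Fewer cells of a type and less RNA per cell cannot be told apart in these bulk samples.

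**Figure D2:**
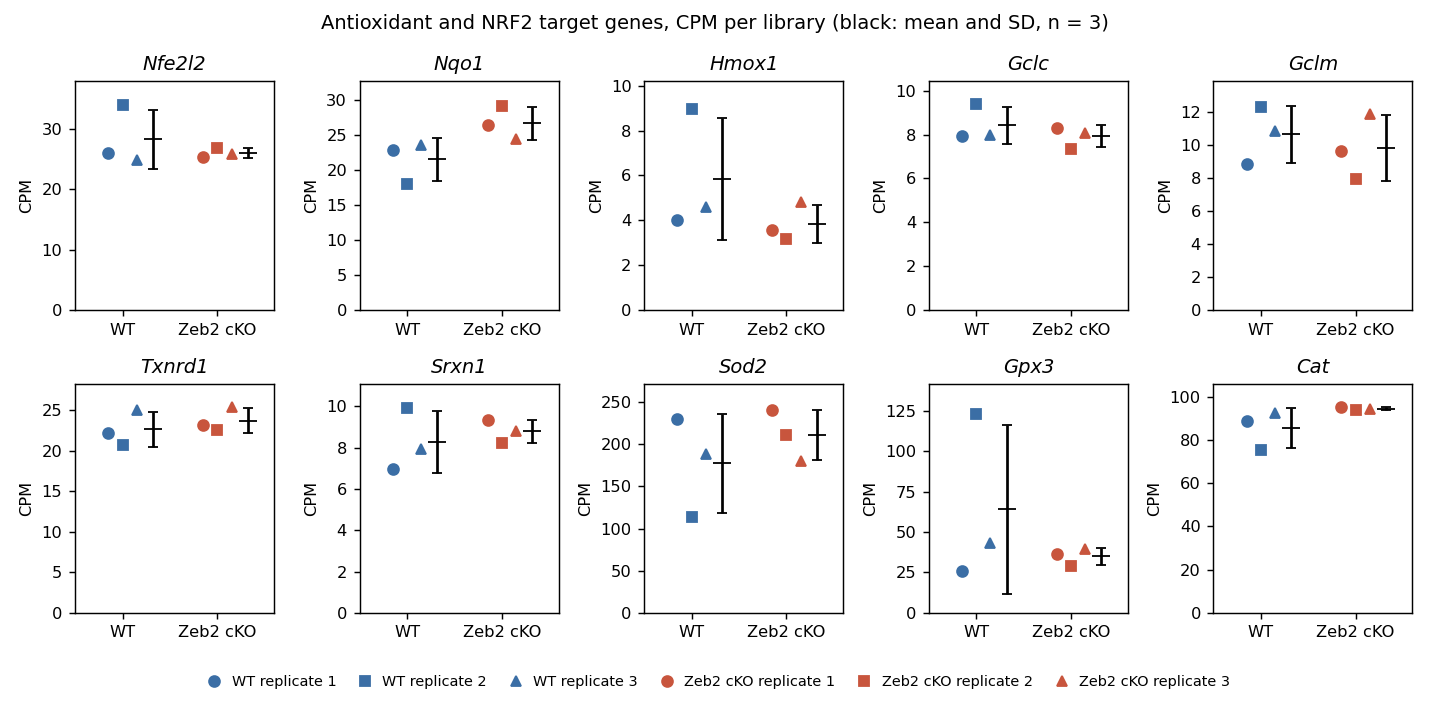
CPM of each member in every library, with WT in blue, Zeb2 cKO in red, and the mean and SD of each group (n = 3) in black. Every axis starts at 0. WT replicate 2 is the highest or the lowest of the 6 points in all 10 panels.

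Nfe2l2 (ENSMUSG00000015839, chromosome 2, 75675513 to 75704641, minus strand) was at 25.9, 33.9 and 24.8 CPM in WT and at 25.3, 26.9 and 25.9 CPM in Zeb2 cKO. The highest value belonged to WT replicate 2, and the other 5 libraries lay within a ratio of 1.08 of each other. Group means were 28.2 ± 4.95 and 26.0 ± 0.806 CPM (SD, n = 3 each), which corresponds to -0.12 on the log2 scale (95% interval -0.46 to 0.23). Without WT replicate 2 it was 0.04 (-0.18 to 0.25). NRF2 protein, on which KEAP1 acts, was not measured.

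Nqo1 (ENSMUSG00000003849, chromosome 8, 107388225 to 107403206, minus strand), which reduces quinones to hydroquinones and is a commonly used readout of NRF2 activity, had the smallest unadjusted p of the members. It was at 22.9, 18.0 and 23.6 CPM in WT and at 26.4, 29.2 and 24.4 CPM in Zeb2 cKO. Each Zeb2 cKO library lay above each WT library, with a gap of less than 1 CPM between WT replicate 3 and Zeb2 cKO replicate 3. The means were 21.5 ± 3.04 and 26.7 ± 2.37 CPM (SD, n = 3 each). The log2 fold change was 0.31 (SE 0.14, 95% interval -0.03 to 0.65), with an unadjusted p of 0.068 by edgeR and an exact permutation p of 0.1. Without WT replicate 2, its lowest library, the log2 fold change was 0.20 (-0.05 to 0.45).

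Hmox1 (ENSMUSG00000005413, chromosome 8, 75093621 to 75100589, plus strand), which breaks heme down to biliverdin, carbon monoxide and iron, was at 4.01, 8.98 and 4.58 CPM in WT and at 3.56, 3.18 and 4.80 CPM in Zeb2 cKO. WT replicate 2 held 2.23 times the mean of the other 5 libraries, which overlapped between the groups. Means were 5.86 ± 2.72 and 3.85 ± 0.848 CPM (SD, n = 3 each). With all libraries, the log2 fold change of -0.61 (SE 0.34, 95% interval -1.40 to 0.19) went to -0.15 (-0.62 to 0.32) when WT replicate 2 was left out. Leaving out WT replicate 1 instead gave -0.82, with an unadjusted p of 0.0446 by edgeR. That fit kept WT replicate 2, and 1134 of all tested genes had an unadjusted p under 0.05 in it, against 280 with all libraries.

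Gclc and Gclm encode the catalytic and the modifier subunit of glutamate-cysteine ligase, the rate-limiting enzyme of glutathione synthesis. Gclc (ENSMUSG00000032350, chromosome 9, 77754535 to 77794485, plus strand) was at 7.91, 9.39 and 7.97 CPM in WT and at 8.31, 7.35 and 8.08 CPM in Zeb2 cKO. Gclm (ENSMUSG00000028124, chromosome 3, 122245557 to 122270732, plus strand) was at 8.87, 12.3 and 10.9 CPM in WT and at 9.63, 7.97 and 11.9 CPM in Zeb2 cKO. Both genes were highest in WT replicate 2 and lowest in Zeb2 cKO replicate 2, and the groups overlapped. Log2 fold changes were -0.09 (95% interval -0.39 to 0.21) for Gclc and -0.12 (-0.58 to 0.34) for Gclm, and without WT replicate 2 they were -0.001 (-0.26 to 0.26) and 0.001 (-0.43 to 0.43). Per length, the ratio of Gclc to Gclm was 1.33 ± 0.142 in WT and 1.37 ± 0.214 in Zeb2 cKO (SD, n = 3 each, exact permutation p = 0.9, two-sided), with 1.27 in WT replicate 2, between the other WT values of 1.49 and 1.22. Exons of Gclm overlap those of the pseudogene Gm6061 over 244 bases on the same strand. They also overlap those of Gm17494 over 296 bases on the opposite strand. Some reads of Gclm may therefore be of uncertain origin, which was not tested.

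Txnrd1 (ENSMUSG00000020250, chromosome 10, 82833951 to 82897712, plus strand), which uses NADPH to reduce thioredoxin, was the member with the smallest spread over all 6 libraries. It was at 22.1, 20.7 and 25.0 CPM in WT and at 23.1, 22.5 and 25.4 CPM in Zeb2 cKO, with a ratio of highest to lowest of 1.23. In Zeb2 cKO it was higher by 0.07 on the log2 scale (95% interval -0.22 to 0.35), and 0.01 (-0.24 to 0.26) without WT replicate 2. Srxn1 (ENSMUSG00000032802, chromosome 2, 152105516 to 152111376, plus strand), which repairs overoxidized peroxiredoxins, was at 6.96, 9.93 and 7.94 CPM in WT and at 9.33, 8.23 and 8.80 CPM in Zeb2 cKO. Its groups overlapped through WT replicate 2 alone, and each Zeb2 cKO library lay above the other 2 WT libraries. For Srxn1 the log2 fold change was 0.09 (95% interval -0.29 to 0.46) with all libraries and 0.24 (-0.03 to 0.52) without WT replicate 2, with an unadjusted p of 0.0778 by edgeR in the latter. Without WT replicate 1 it was -0.02.

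Sod2 (ENSMUSG00000006818, chromosome 17, 13006846 to 13040063, plus strand), the mitochondrial superoxide dismutase, was at 229.8, 113 and 189 CPM in WT and at 241, 211 and 181 CPM in Zeb2 cKO. WT replicate 2 was the lowest library, at 0.539 of the mean of the other 5. Means were 177 ± 59.1 and 211 ± 30.0 CPM (SD, n = 3 each). With all libraries, the log2 fold change of 0.25 (SE 0.27, 95% interval -0.40 to 0.90) was 0.01 (-0.34 to 0.37) without WT replicate 2.

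Cat (ENSMUSG00000027187, chromosome 2, 103453849 to 103485160, minus strand) encodes catalase, the peroxisomal enzyme that splits hydrogen peroxide. It was at 88.9, 75.3 and 92.6 CPM in WT and at 95.4, 94.0 and 94.2 CPM in Zeb2 cKO. The Zeb2 cKO libraries lay close together and above each WT library. Means were 85.6 ± 9.11 and 94.5 ± 0.770 CPM (SD, n = 3 each), and cKO exceeded WT by 0.14 on the log2 scale (95% interval -0.16 to 0.45, unadjusted p = 0.306 by edgeR, exact permutation p = 0.1). Without WT replicate 2 the log2 fold change was 0.06 (-0.15 to 0.27).

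Gpx3 (ENSMUSG00000018339, chromosome 11, 54902453 to 54910377, plus strand), the glutathione peroxidase secreted into plasma and matrix, had the largest fold change of the members and also the largest spread. It was at 25.6, 123 and 43.0 CPM in WT and at 36.5, 29.0 and 39.4 CPM in Zeb2 cKO. The value of WT replicate 2 was 3.55 times the mean of the other 5 libraries, and all 3 Zeb2 cKO libraries lay between the other 2 WT libraries. Means were 64.0 ± 52.1 and 35.0 ± 5.39 CPM (SD, n = 3 each). The log2 fold change was -0.87 (SE 0.54, 95% interval -2.15 to 0.40) with all libraries, 0.03 (-0.49 to 0.55) without WT replicate 2, and -1.25 (unadjusted p = 0.0234 by edgeR) without WT replicate 1. The direction of Gpx3 therefore depended on 1 library. Without WT replicate 1, 1134 of all tested genes had an unadjusted p under 0.05, against 280 with all libraries.

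**Figure D3:**
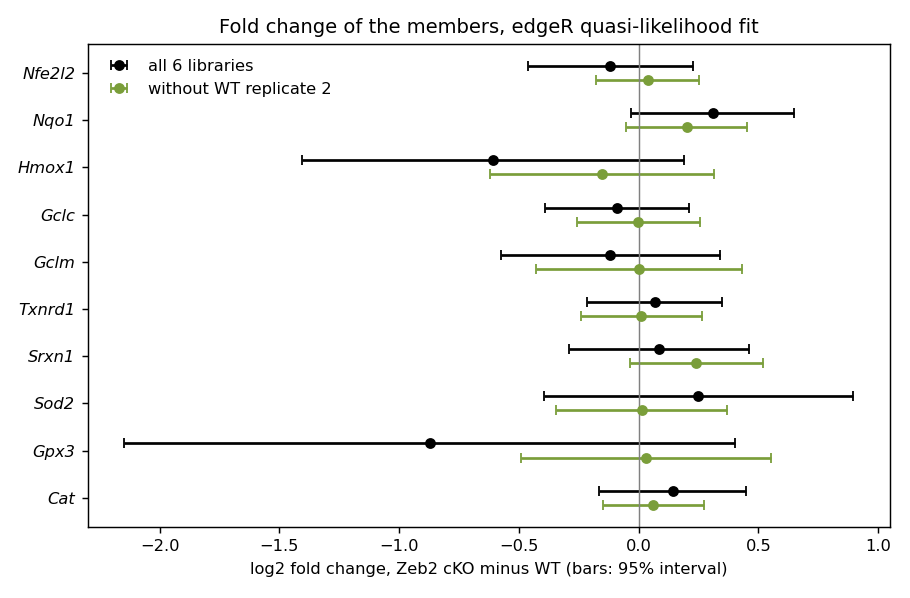
Log2 fold change of each member, Zeb2 cKO minus WT, with its 95% interval, from the fit to all 6 libraries and from the fit without WT replicate 2. All intervals span 0, and those of Gpx3 and Hmox1 are the widest in the fit to all 6 libraries.

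WT replicate 2 was the highest of the 6 libraries for 6 members (Nfe2l2, Hmox1, Gclc, Gclm, Srxn1 and Gpx3) and the lowest for 4 (Nqo1, Txnrd1, Sod2 and Cat). Over all tested genes this library was the highest for 35.2% and the lowest for 34.6%, together 69.8%. Relative to the mean of the other 5 libraries the members ran from 3.55 for Gpx3 and 2.23 for Hmox1, through 1.32 for Nfe2l2, 1.25 for Gclm, 1.20 for Srxn1 and 1.18 for Gclc, down to 0.876 for Txnrd1, 0.810 for Cat, 0.712 for Nqo1 and 0.539 for Sod2. On the same measure the summed macrophage markers stood at 3.14, the fibroblast and matrix markers at 4.94 and the red cell markers at 1.29. The cardiomyocyte markers stood at 0.559, the endothelial markers at 0.760 and the smooth muscle markers at 0.790. Summed macrophage markers ranged from 239.98 to 921 CPM in WT and from 287 to 311 CPM in Zeb2 cKO, and only Cd163 of the 11 was at its lowest in WT replicate 2. Fibroblast and matrix markers ranged from 1725 to 9685 CPM in WT and from 1715 to 2366 CPM in Zeb2 cKO. Neutrophil markers summed to at most 4.99 CPM and adipocyte markers to at most 2.96 CPM in any library, with Lep, Retn and Retnlg at 0 in some. Their part in the values of the members was not tested. Without WT replicate 2, 8 members were higher and 2 lower in Zeb2 cKO (49.1% of all tested genes were lower), the median log2 fold change was 0.02 against 0.003 for all tested genes, and 0 members had an unadjusted p under 0.05, where 2.63% of 14966 tested genes had one.

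**Figure D4:**
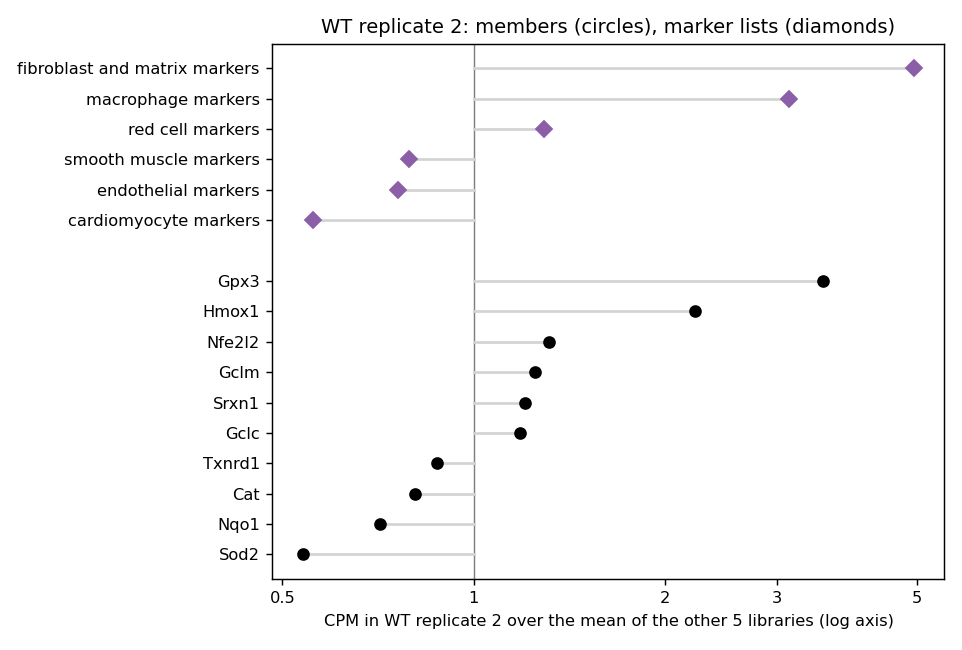
Ratio of the CPM in WT replicate 2 to the mean of the other 5 libraries (log axis) for the 10 members (circles) and for the summed CPM of 6 marker lists (diamonds); the adipocyte and neutrophil lists, which sum to a few CPM, are not drawn. Gpx3 and Hmox1 lie on the side of the macrophage, fibroblast and red cell markers. Sod2 and Nqo1 lie on the side of the cardiomyocyte, endothelial and smooth muscle markers.

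The other genes of these pathways were counted in 10 lists of 112 genes, of which 105 were tested. An unadjusted p under 0.05 was found for 5 genes that were lower and 1 that was higher in Zeb2 cKO (5.71%, against 1.9% of all tested genes), and 0 passed adjustment, each of these 6 having an adjusted p of 0.957 by edgeR. Without WT replicate 2, 2 genes were lower and 1 was higher at that threshold (2.86%, against 2.63% of all tested genes): Txnip, Slc7a11 and, higher, the epoxide hydrolase gene Ephx1, named after its values were seen (log2 fold change -0.03 with all libraries and 0.33 without WT replicate 2). Without Zeb2 cKO replicate 1, 0 of the 6 genes had an unadjusted p under 0.05. Groups did not overlap for 3 lower and 2 higher genes (4.76%, against 6.36% of all tested genes). The median log2 fold change of the 105 genes was -0.01, and 0.05 without WT replicate 2.

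Txnip encodes the thioredoxin-interacting protein, which binds thioredoxin and inhibits it. It was at 324, 349 and 306 CPM in WT and at 149.9, 212 and 256 CPM in Zeb2 cKO, and each Zeb2 cKO library lay below each WT library. The log2 fold change was -0.66 (SE 0.22, 95% interval -1.18 to -0.14, unadjusted p = 0.0195 by edgeR, exact permutation p = 0.1). It was -0.61 (unadjusted p = 0.0202 by edgeR) without WT replicate 2. Over the fits that each left out 1 library it ran from -0.85 to -0.48, and the unadjusted p by edgeR was 0.0567 without Zeb2 cKO replicate 1 and 0.0538 without Zeb2 cKO replicate 2. Of the longest Txnip transcript, 21.6% is shared with Gm15441, so part of its reads may belong to that gene. The other 13 genes of the thioredoxin and peroxiredoxin list gave no unadjusted p under 0.05, as in Prdx4 (log2 fold change -0.42, and 0.06 without WT replicate 2) and Prdx6 (0.24 and 0.05), which encode peroxide-reducing enzymes.

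Slc7a11, which encodes the cystine importer that feeds glutathione synthesis, is a target of NRF2 and was expressed at few counts. It had 46, 14 and 17 counts in WT and 14, 6 and 14 in Zeb2 cKO, which gave 1.22, 0.319 and 0.443 CPM against 0.280, 0.138 and 0.261 CPM. Each Zeb2 cKO library lay below each WT library, with WT replicate 1 far above the rest. The log2 fold change was -1.51 (SE 0.58, unadjusted p = 0.0361 by edgeR), -1.84 (unadjusted p = 0.00772) without WT replicate 2 and -0.72 (unadjusted p = 0.142) without WT replicate 1. Glrx and Glrx3, 2 glutaredoxins of the same list, had log2 fold changes of -0.21 and 0.16, and of -0.31 and 0.16 without WT replicate 2. Of the longest transcript, 4.87% is shared with other genes for Slc7a11 and 2.22% for Aox1, described next.

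Among genes of quinone and aldehyde detoxification, the carbonyl reductase gene Cbr3 was at 0.903, 2.19 and 1.02 CPM in WT and at 0.719, 0.714 and 0.596 CPM in Zeb2 cKO, without overlap (log2 fold change -1.02, exact permutation p = 0.1, unadjusted p = 0.0320 by edgeR, and -0.50 with p = 0.0842 without WT replicate 2). The aldehyde oxidase gene Aox1 was the 1 gene of the lists that was higher at this threshold. It was at 16.0, 13.7 and 17.9 CPM in WT and at 20.0, 18.4 and 22.7 CPM in Zeb2 cKO, also without overlap (log2 fold change 0.36, exact permutation p = 0.1, unadjusted p = 0.0421 by edgeR, and 0.27 with p = 0.0674 without WT replicate 2). Nqo2, the paralog of Nqo1, had a log2 fold change of 0.25 (unadjusted p = 0.103 by edgeR), and of 0.17 without WT replicate 2, with groups that overlapped.

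The regulators of NRF2 included Maff, a small MAF protein gene, at 3.24, 5.83 and 3.80 CPM in WT and 2.44, 2.05 and 3.42 CPM in Zeb2 cKO (log2 fold change -0.70, unadjusted p = 0.0470 by edgeR). Without WT replicate 2 its log2 fold change was -0.41 (unadjusted p = 0.124 by edgeR). Bach1, the repressor that competes with NRF2, had a log2 fold change of -0.12, and of -0.03 without WT replicate 2. Nfe2l1, which encodes a related transcription factor, had one of 0.09, which turned to -0.08 without WT replicate 2. The 9 regulators had a median of -0.01, and of -0.08 without WT replicate 2.

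The list of NADPH oxidase and other superoxide source genes, which also holds the xanthine oxidase gene Xdh, stood high in WT replicate 2. Of 11 tested, 10 were at their highest in that library, and their median log2 fold change was -0.60 with it and 0.03 without it. Nox4 was at 3.98, 46.5 and 7.24 CPM in WT and at 4.66, 4.77 and 6.74 CPM in Zeb2 cKO. Cybb, the catalytic subunit of the phagocyte oxidase, was at 8.18, 45.4 and 15.1 CPM in WT and at 10.8, 11.5 and 10.6 CPM in Zeb2 cKO. Ncf4, a cytosolic subunit of the same enzyme, was at 1.06, 4.08 and 1.56 CPM against 0.979, 1.08 and 0.893 CPM (log2 fold change -1.19, unadjusted p = 0.0474 by edgeR), and without WT replicate 2 its log2 fold change was -0.41 with an unadjusted p of 0.148. Summed macrophage and fibroblast markers, given above, were highest in the same library, and their part in these values was not tested.

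**Figure D5:**
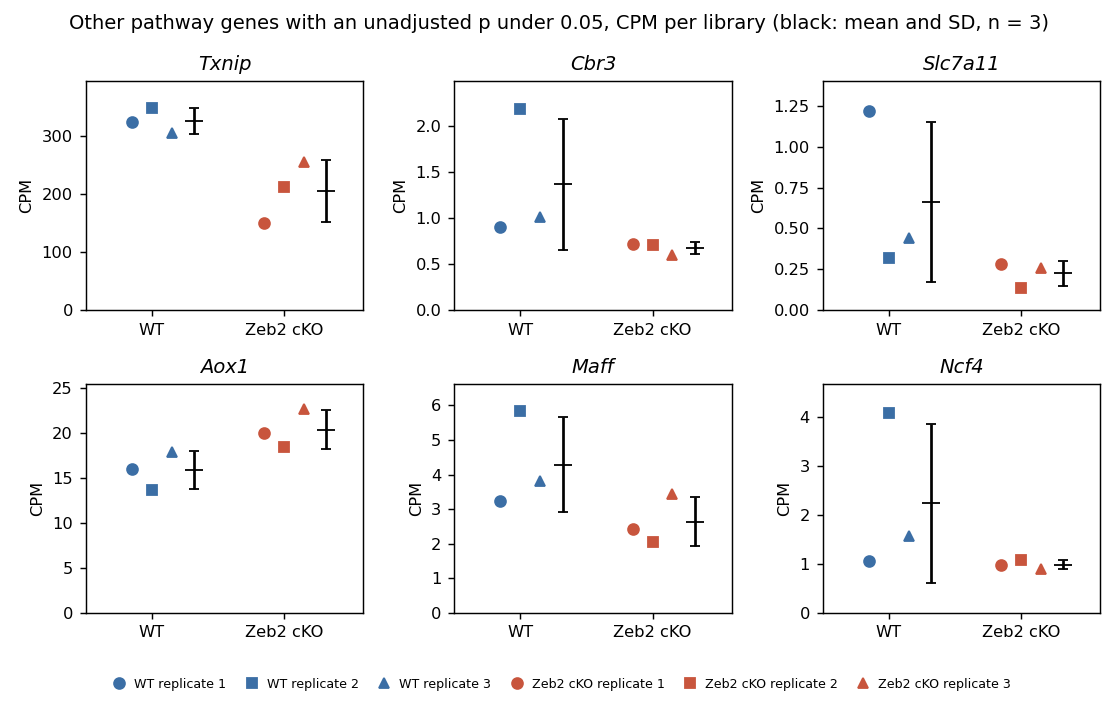
CPM in every library of the 6 other pathway genes with an unadjusted p under 0.05, with the mean and SD of each group (n = 3) in black. Txnip, Cbr3, Slc7a11 and Aox1 show no overlap between the groups, and in Txnip, Maff, Ncf4 and Cbr3 the WT replicate 2 point lies highest.

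The remaining lists held 0 genes with an unadjusted p under 0.05 in the fit to all 6 libraries. In the glutathione transferases, 11 of 15 tested genes had a positive log2 fold change, where 51.4% of all tested genes were below 0. WT replicate 2 was the lowest library for 6 of the 15 and the highest for 2. Their median was 0.13, and 0.10 without WT replicate 2, 0.06 without Zeb2 cKO replicate 1 and 0.32 without Zeb2 cKO replicate 3. Gstt2 did not overlap between the groups, at 1.99, 2.03 and 1.82 CPM in WT and 2.72, 2.51 and 2.03 CPM in Zeb2 cKO (log2 fold change 0.31, unadjusted p = 0.132 by edgeR, and 0.34 without WT replicate 2). That separation rested on WT replicate 2 at 2.0280 and Zeb2 cKO replicate 3 at 2.0285 CPM. The other glutathione peroxidases had a median of -0.40 over 4 tested genes and of 0.05 without WT replicate 2. Gpx4 went the other way (log2 fold change 0.18, and 0.16 without WT replicate 2). Gpx8 and Gpx7 were both at their highest in that library. Sod3, the extracellular superoxide dismutase, was also highest there, at 8.68, 23.6 and 9.71 CPM in WT and 7.67, 10.8 and 9.12 CPM in Zeb2 cKO, whereas the cytosolic Sod1 was at 25.9, 21.6 and 27.6 CPM against 30.1, 29.3 and 24.2 CPM. For NADPH supply the median log2 fold change was -0.08 over 10 genes, but -0.02 without WT replicate 2, -0.01 without Zeb2 cKO replicate 1 and 0.04 without WT replicate 3. For heme and iron handling it was -0.08 over 10 genes and -0.05 without WT replicate 2. Slc40a1, the iron exporter ferroportin, was at 8.39, 15.5 and 6.98 CPM in WT and at 5.18, 5.76 and 8.04 CPM in Zeb2 cKO, with a log2 fold change of -0.70 that went to -0.28 without WT replicate 2.

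As a description, the genes whose log2 CPM over the 6 libraries was most like that of a member were found among 12326 tested genes with a mean of at least 1 CPM. All of these correlations share the 6 libraries, including WT replicate 2, which stood apart. Hmox1 was most like Csf2rb, Myo9b and Ereg (Pearson r 0.999, 0.998 and 0.997), Gpx3 most like Tm9sf3 (1.00), and Gclm most like Cd44 (0.995). Nfe2l2 was most like Rab29 (0.995), Nqo1 most like Ccdc181 (0.999) and Cat most like Wsb2 (0.999). Txnrd1 had the lowest best match, Inpp5j at 0.979.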

How the data were processed

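RNA depleted of ribosomal RNA was sequenced from 3 WT and 3 Zeb2 cKO hearts. The authors deposited raw counts per gene, made with the STAR workflow on an earlier Gencode release. The STAR version and strand setting are not given in the sources used here. Symbols, coordinates and exon lengths came from Gencode M21 (GRCm38).

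Counts were normalized with TMM and tested with edgeR 4.0.16 (R 4.3.3, filterByExpr, glmQLFit and glmQLFTest, prior count 0.125) and adjusted after Benjamini and Hochberg. On simulated data for this comparison (14869 tested genes), edgeR recovered 50 of 100 genes with a true log2 fold change of size 1 and 96 of 100 of size 2, beside 8 false calls. These numbers describe the simulated data only, and are not the power for the members, whose SE reached 0.54 (Gpx3). Whether the simulation matched the spread of these libraries, with WT replicate 2 apart, was not tested. DESeq2 1.42.0, other normalization and filters, a replicate block and leaving out each library were alternatives. Transcripts sharing stretches of at least 75 bases at 95% identity were searched with BLAST.

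The labels give 3 samples a group, and the p-values by edgeR weigh the difference between groups against the spread between samples. Members and lists were chosen with earlier results of these data known. Named were the members, Zeb2, the 3 genes of each list with the smallest p and the 3 genes most like each member; not all are printed. Members had at least 138 counts in every library.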

Additional observations from a re-analysis of the deposited data

How the results depend on the processing

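Alternatives covered normalization, the filter, mitochondrially encoded genes, DESeq2, a robust fit, the replicate block and each library left out. In all of them 0 members had an adjusted p under 0.05. Of 120 alternative member fold changes, 115 kept their sign and 5 reversed: without WT replicate 2, Nfe2l2 was 0.038, Gpx3 0.032 and Gclm 0.0009, without Zeb2 cKO replicate 2, Gclm was 0.015, and without WT replicate 1, Srxn1 was -0.024. With 1 library left out Nfe2l2 ran from -0.20 to 0.038, Gclm from -0.28 to 0.015, Srxn1 from -0.024 to 0.24 and Gpx3 from -1.25 to 0.032. Members with an unadjusted p under 0.05 numbered 0 to 2 with 1 library left out, the 2 being Gpx3 and Hmox1 without WT replicate 1. In that fit 1134 of all tested genes had one, against 280 with all libraries. All 72 alternative fold changes of the 6 other pathway genes kept their sign, but with 1 library left out 0 (without Zeb2 cKO replicate 1) to 5 (without WT replicate 3) of the 6 had an unadjusted p under 0.05, and 4 under the replicate block. Over the lists, 12 of 120 alternative medians moved by more than the spread (1 SD) between WT libraries, and 30 of 120 counts of genes with an unadjusted p under 0.05 by over 1.5 times. That spread includes WT replicate 2. The NADPH oxidase list, at -0.60 with all libraries and 0.03 without WT replicate 2, did not count as moved. NADPH supply, at -0.08 and -0.02, did. The 280 genes with an unadjusted p under 0.05 became 600 with no filter and 429 with DESeq2. With 1 library left out they ran from 122 (without Zeb2 cKO replicate 1) to 1134 (without WT replicate 1). The causes of these shifts were not tested. Genes called higher at an adjusted p under 0.05 numbered 1 with DESeq2 (Slc46a2, log2 fold change 4.20, adjusted p 0.0382). The deviations of same-numbered libraries had r = 0.088, -0.137 and -0.087, within the range of differently numbered ones (-0.263 to 0.238). With so few libraries these values cannot decide pairing. The numbers were not taken as pairs, and the replicate block gave 247 genes with an unadjusted p under 0.05. Depth limits Slc7a11, with 6 to 46 counts a library, and Cbr3 and Ncf4 were also at low CPM in most libraries.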
